A study of Mus musculus with 55 samples.

Results

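The 9 genes described here encode receptors through which hormones, neurotransmitters, incretins and lipids adjust insulin secretion and β cell mass: Glp1r, Gipr, Gcgr, Gpr119, Ffar1, Ghsr, Adra2a, Sstr3 and Prlr. They were taken as a fixed list by gene symbol from the bulk RNA-seq count table of mouse islets, which holds 47937 genes, and each was followed through all 16 libraries together with the chromatin state at its start site. All 9 were counted and all 9 passed the filter on low counts. The list names genes and applies no cut on a measured value, but it was chosen with earlier results of these data known. Shares of the receptors set beside shares of all genes below are therefore descriptions.

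Glucose sets the basic rate of insulin release, and receptors on the β cell surface turn that rate up or down. Receptors that couple to Gs, such as those for glucagon-like peptide 1, glucose-dependent insulinotropic polypeptide and glucagon, raise cAMP and amplify glucose-stimulated release. The fatty acid receptor Ffar1 acts mainly through Gq and calcium. Receptors that couple to Gi, such as the α2A-adrenergic receptor Adra2a and the somatostatin receptor Sstr3, lower cAMP and restrain release. The prolactin receptor is a cytokine receptor that signals through Jak2 and Stat5 and is known for its part in β cell expansion in pregnancy.

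The study deleted Eed, a core subunit of Polycomb repressive complex 2 (PRC2, which methylates histone H3 at lysine 27), in β cells of male mice. In βEedKO mice both alleles of Eed are floxed and a RIP-cre transgene, Cre driven by a rat insulin promoter, is carried. The labels call the other groups wild type and heterozygous (HET), and all strains are given as C57B6/J. Whether the wild-type animals carried Cre is not given in the sources used here. Whole islets were picked by hand and kept in culture at 11 mM glucose, so each library holds every islet cell type while the deletion is driven by the insulin promoter. Islets came from mice of 8 weeks (3 wild-type, 3 HET and 3 βEedKO libraries) and 25 weeks (3 wild-type, 2 HET and 2 βEedKO libraries). A library held islets of a single animal or a pair, except that each βEedKO library at 25 weeks held islets pooled from at least 4 animals. The values are mRNA-seq read counts, given below as CPM, counts relative to a library total scaled by TMM factors (edgeR's correction for library composition), over total counts of 4645393 to 22925359 per library.

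The start sites of the receptors lay in different chromatin of wild-type islets. The deposited segmentation gives each bin of 200 bp a state letter and no measured level, so it carries no error. On GRCm38 the annotated start sites of Glp1r (ENSMUSG00000024027.7, chromosome 17 from 30901817 to 30940791, plus strand) and Gipr (ENSMUSG00000030406.7, chromosome 7 from 19156061 to 19166127, minus strand) lay in state A, an active start site state. Those of Ffar1 (ENSMUSG00000044453.5, chromosome 7 from 30857390 to 30861564, minus strand) and Sstr3 (ENSMUSG00000044933.2, chromosome 15 from 78537008 to 78544685, minus strand) lay in state B, the second active start site state. The glucagon receptor gene Gcgr (ENSMUSG00000025127.15, chromosome 11 from 120530699 to 120538986, plus strand), the ghrelin receptor gene Ghsr (ENSMUSG00000051136.1, chromosome 3 from 27371351 to 27378010, plus strand) and Prlr (ENSMUSG00000005268.20, chromosome 15 from 10177238 to 10349180, plus strand) had their first start site in state L. State L is bivalent, with H3K27me3 beside high H3K4me3. Adra2a (ENSMUSG00000033717.5, chromosome 19 from 54044151 to 54048982, plus strand) began in state D, a proximal regulatory state. Gpr119 (ENSMUSG00000051209.3, chromosome X from 48667979 to 48674478, minus strand) has no state because the segmentation covers the autosomes. Of 51117 annotated genes with a state, 14.1% had A, 7.11% had B, 1.4% had D and 6.71% had L at the start site.

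The letter at a single start site described some of these genes only in part. In Adra2a the other annotated transcript starts 1109 bp downstream, in state A, and states A and B together filled most of the gene body (24.8% and 49.7%). In Prlr a further transcript starts 176 bp downstream, in state B, and the gene body lay mainly in regulatory and elongation states, E at 37.7% and J, a state of transcript ends and enhancers, at 23.3%. Gcgr kept state L at 3 of its 4 annotated starts while 41% of its body lay in state F, a state of proximal regulation and elongation. Ghsr alone had a body in repressive states: 36.2% lay in the Polycomb state O, 36% in the bivalent state M with high H3K27me3 and 18.8% in L. The body of Glp1r lay in state F for 69.8% of its length.

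**Figure D1:**
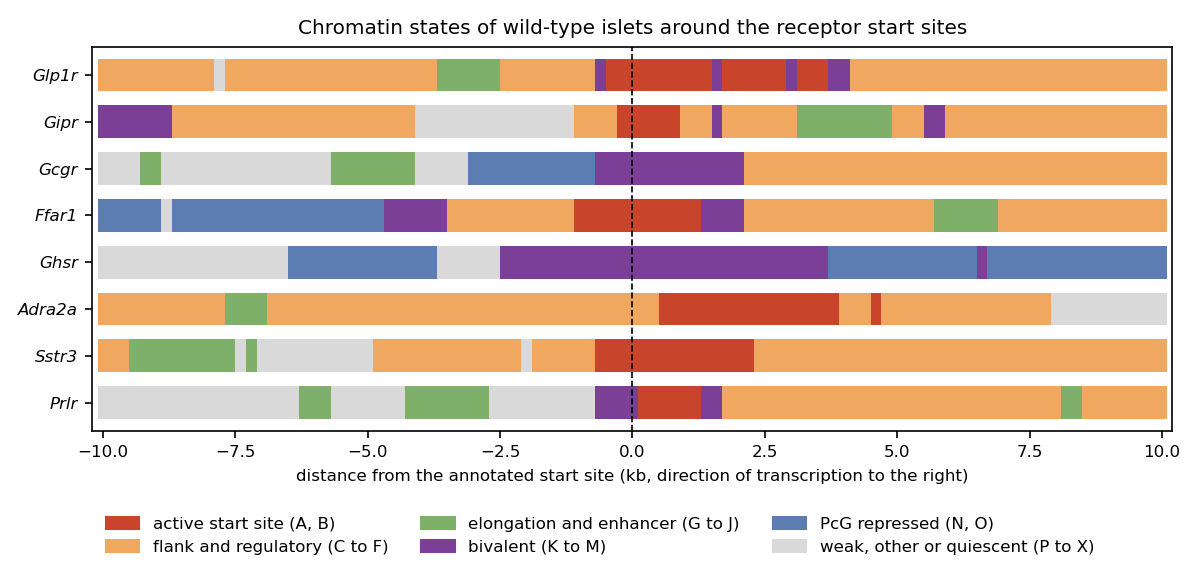
Chromatin state of wild-type islets in bins of 200 bp within 10 kb of the annotated start site of the 8 autosomal receptors, with distance from the start on the x axis in kb and colours for groups of states. Ghsr sits in bivalent and Polycomb states on both sides of its start, Gcgr and Prlr have bivalent bins at the start itself, and Glp1r, Gipr, Ffar1 and Sstr3 have active start site states there.

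The sequence just upstream of the start is printed for 5 receptors that stand for these arrangements: Glp1r and Adra2a with active starts, and Gcgr, Ghsr and Prlr with a bivalent one. Each is the 250 bases before the RefSeq start on GRCm38.p6, read 5′ to 3′ along the gene, with every CpG in capitals. CpG reads the same on both strands. For Adra2a the RefSeq start is the downstream one in state A.
Glp1r, chr17:30901617-30901866, plus strand: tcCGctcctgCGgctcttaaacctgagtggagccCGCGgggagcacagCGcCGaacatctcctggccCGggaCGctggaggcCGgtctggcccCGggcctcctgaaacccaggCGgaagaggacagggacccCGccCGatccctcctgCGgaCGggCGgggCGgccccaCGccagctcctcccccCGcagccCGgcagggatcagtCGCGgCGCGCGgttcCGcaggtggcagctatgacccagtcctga
Adra2a, chr19:54045009-54045258, plus strand: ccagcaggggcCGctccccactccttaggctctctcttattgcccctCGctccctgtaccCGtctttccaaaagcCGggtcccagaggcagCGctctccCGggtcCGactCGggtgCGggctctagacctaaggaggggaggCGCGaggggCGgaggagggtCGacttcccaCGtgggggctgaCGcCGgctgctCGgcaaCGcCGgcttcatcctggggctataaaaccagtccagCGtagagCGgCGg
Gcgr, chr11:120530477-120530726, plus strand: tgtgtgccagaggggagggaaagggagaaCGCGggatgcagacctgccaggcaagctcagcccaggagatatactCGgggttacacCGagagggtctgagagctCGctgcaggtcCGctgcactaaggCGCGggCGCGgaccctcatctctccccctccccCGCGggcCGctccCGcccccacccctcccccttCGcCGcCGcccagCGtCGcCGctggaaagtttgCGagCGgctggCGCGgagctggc
Ghsr, chr3:27371101-27371350, plus strand: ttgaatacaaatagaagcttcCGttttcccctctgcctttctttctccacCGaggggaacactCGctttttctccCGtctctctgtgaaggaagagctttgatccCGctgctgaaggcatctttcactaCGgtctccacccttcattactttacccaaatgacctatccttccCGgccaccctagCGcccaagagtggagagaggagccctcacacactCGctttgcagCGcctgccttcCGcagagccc
Prlr, chr15:10176988-10177237, plus strand: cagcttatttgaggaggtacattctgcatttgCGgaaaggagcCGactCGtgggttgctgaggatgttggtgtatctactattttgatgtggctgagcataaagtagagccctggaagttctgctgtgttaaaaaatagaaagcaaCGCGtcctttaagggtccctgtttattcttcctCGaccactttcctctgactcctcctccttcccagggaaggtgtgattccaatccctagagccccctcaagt
The window of Glp1r held 26 CpG, that of Gcgr 24 and that of Adra2a 22, while Ghsr had 11 and Prlr 6. Of 32851 promoter windows of this length, 92.1% held at least 1 CpG, and the median was 6. The median was 20 where the start lay in state A, 16 in state B and 12 in state L. CpG-rich windows thus stood at receptors with an active start (Glp1r, Adra2a) and at one with a bivalent start (Gcgr). Among the others, Ffar1 held 8, Sstr3 6 and Gpr119 3 CpG. These counts describe the letters and say nothing of methylation.

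In wild-type islets at 25 weeks the incretin receptor Gipr had the highest level per length, at 51.7 ± 4.54 RPKM (CPM divided by the exon length in kb; SD, n = 3 libraries). Sstr3 followed with 38.9 ± 3.39 RPKM, Ffar1 with 34.5 ± 7.67 RPKM, Adra2a with 33.5 ± 14.7 RPKM and Glp1r with 26.3 ± 16.0 RPKM. Neighbours among Sstr3, Ffar1, Adra2a, Glp1r and Gcgr (14.6 ± 3.74 RPKM) overlapped within their ranges over libraries, so their order is not resolved. Prlr had 9.52 ± 0.628 RPKM, below every Gcgr library. Gpr119 had 3.85 ± 0.906 RPKM and Ghsr 0.640 ± 0.172 RPKM, and both were separate from their neighbours in the order. In βEedKO islets at 25 weeks Gipr was still first with 35.1 ± 1.81 RPKM (SD, n = 2), Sstr3 had 15.7 ± 2.55 RPKM and Gcgr 13.7 ± 2.28 RPKM, and Glp1r had 3.38 ± 1.62 RPKM. Sstr3 overlapped Gcgr there, and so did neighbours among Adra2a, Ffar1, Prlr and Glp1r, so the order within each of these sets is not resolved. The length of Prlr depends on the transcripts used. With its longest transcript alone its level in wild type at 25 weeks was 14.8 RPKM, close to 15.3 RPKM for Gcgr by the same measure. Its place in the order at that age stayed the 7th, but its separation from Gcgr was examined only with the union of exons.

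Library facts that touch these genes come first. Eed itself had 19.3 to 28.3 CPM in wild type and 15.6 and 14.2 CPM in βEedKO at 25 weeks, and 23.8 to 33.1 against 13.4 to 14.9 CPM at 8 weeks. All βEedKO libraries lay below all wild-type libraries of their age, although the adjusted p from edgeR was 0.142 and 0.0881. The sum of 10 β cell markers (all counted, none at 0) was 125003 to 221794 CPM in wild type at 25 weeks and 14438 and 17563 CPM in βEedKO, and 9 of the 10 fell at 25 weeks. At 8 weeks the sum was 139043 to 208765 CPM in wild type and 131560 to 215149 CPM in βEedKO. In bulk islets fewer β cells and less RNA of these genes per β cell cannot be told apart. The 11 acinar markers, a sign of exocrine tissue, summed to 400724 CPM in βEedKO replicate 2 and 12602 CPM in replicate 3 at 25 weeks, against 30798 to 222749 CPM in wild type. The 8 α cell markers summed to 12179 and 12842 CPM in βEedKO against 8612 to 9807 CPM in wild type at 25 weeks, and the 7 duct markers to 586 and 730 CPM against 266 to 326 CPM. The part of these cell types in the receptor results was not tested. At 8 weeks 8 interferon-induced genes summed to 3288 and 3518 CPM in wild-type replicates 3 and 4 and to 4374 and 4825 CPM in βEedKO replicates 4 and 5. In the other 12 libraries the sum was 54.7 to 139 CPM, so these 4 libraries stand apart within both genotypes at that age.

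**Figure D2:**
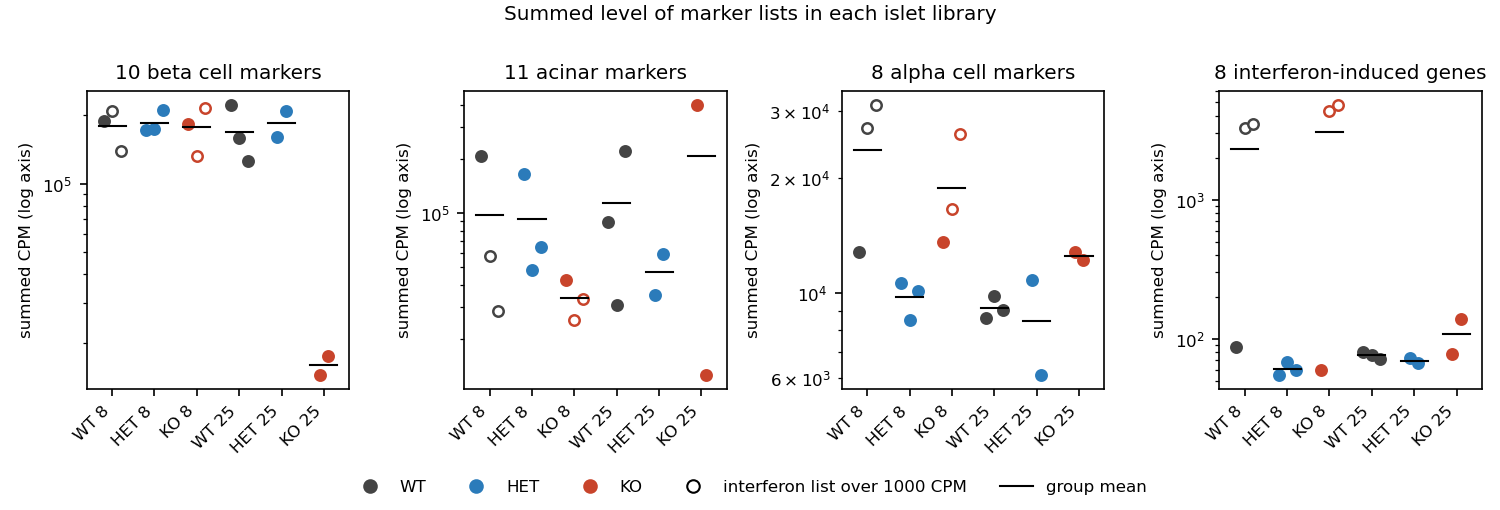
Summed CPM (log axis) of the β cell, acinar, α cell and interferon-induced gene lists in each library, by genotype and age in weeks, with bars at group means and open circles for the 4 libraries in which the interferon list exceeded 1000 CPM. The β cell sum of the βEedKO libraries at 25 weeks, 14438 and 17563 CPM, lies below all others, and their acinar sums are the highest and the lowest of all 16.

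At 25 weeks Glp1r and Adra2a fell in βEedKO islets. They were 2 of the 9 receptors, none rose, and the other 7 did not pass the test. Over all 18685 genes tested, 2.02% fell and 4.58% rose by the same test (edgeR's quasi-likelihood test, Benjamini-Hochberg adjustment, adjusted p under 0.05). The median log2 fold change was -1.32 over the receptors and 0.03 over all genes. In 7 of the 9 both βEedKO libraries lay below all wild-type libraries, which was so for 15.9% of all genes. 5 of the 9 were lower at an unadjusted p under 0.05, against 7.42% of all genes. The paper reports that βEedKO mice of the older age were overtly diabetic, while those of the younger age were glucose tolerant. Any part of blood glucose in the comparisons that use the older βEedKO islets, including those between the ages, was not tested.

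Glp1r, the receptor for the incretin glucagon-like peptide 1, had 47.5, 221.9 and 189.8 CPM in wild-type replicates 2, 3 and 4 at 25 weeks and 13 and 26.3 CPM in the βEedKO libraries. The groups did not overlap, although wild-type replicate 2, the library with the fewest reads, stood well below the others of its group. The fitted log2 fold change was -3.02 ± 0.72 (SE), or 8.11-fold lower, with an adjusted p of 0.0341 by edgeR. The closely related receptor Gipr, which binds the other incretin, had 162.5, 193.3 and 184.4 CPM in wild type and 126.6 and 117.7 CPM in βEedKO. Both βEedKO libraries were the lower ones, but the difference of -0.61 ± 0.61 on the log2 scale was no larger than its standard error (adjusted p = 0.649, edgeR). Gcgr, the glucagon receptor, had 49.2, 35.3 and 30.3 CPM in wild type and 31.7 and 40.1 CPM in βEedKO, and the groups overlapped (log2 fold change -0.14 ± 0.49, adjusted p = 0.916, edgeR). Gpr119, a receptor for lipid amides that also couples to Gs, had 10.9, 8.50 and 6.80 CPM in wild type and 4.33 and 3.06 CPM in βEedKO. Its groups did not overlap, and the log2 fold change of -1.29 ± 0.61 did not pass (adjusted p = 0.276, edgeR).

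Ffar1, the receptor for long-chain fatty acids, had 175.6, 145.3 and 111.6 CPM in wild type at 25 weeks and 19.2 and 20.6 CPM in βEedKO. The highest βEedKO library was thus well below the lowest wild-type library, yet the log2 fold change of -2.91 ± 0.82 stopped short of the threshold (adjusted p = 0.0633, edgeR). The spread that enters this test is shared with the 8-week groups, in which Ffar1 ranged from 22.5 to 134.4 CPM within βEedKO alone. With both replicate 1 libraries at 8 weeks left out, a setting chosen after seeing the data, the same difference had an SE of 0.24. Its adjusted p was then 0.000339 by edgeR. Of 11 fits that each left out 1 library, only 2 called Ffar1. Ghsr, the ghrelin receptor, was barely present: 1.96, 3.31 and 3.25 CPM in wild type and 1.67 and 4.67 CPM in βEedKO, from 95 and 138 reads in all. Its groups overlapped, and the log2 fold change was 0.09 ± 0.63 (adjusted p = 0.960, edgeR).

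Of the receptors that couple to Gi, Adra2a fell and Sstr3 did not pass. Adra2a had 80.0, 203.3 and 202.0 CPM in wild-type replicates 2, 3 and 4 at 25 weeks and 23.5 and 37.0 CPM in βEedKO. Again wild-type replicate 2 was the low library of its group and still lay above both βEedKO libraries. The log2 fold change was -2.48 ± 0.49, or 5.57-fold lower, with an adjusted p of 0.0151 by edgeR. Sstr3 had 168.2, 182.7 and 153.4 CPM in wild type and 60.1 and 75.7 CPM in βEedKO, with no overlap and a log2 fold change of -1.36 ± 0.40 (adjusted p = 0.0708, edgeR). The cytokine receptor gene Prlr had 137.5, 156.5 and 144.3 CPM in wild type and 35.7 and 85.8 CPM in βEedKO, with no overlap and a log2 fold change of -1.32 ± 0.38 (adjusted p = 0.0659, edgeR). Of the exon bases of Prlr, 1.32% are shared with an overlapping gene model, Gm21973, on the same strand, and the other 8 receptors share none.

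The calls at 25 weeks depended on the libraries and on the design. With the replicate number of the labels as a block, Ffar1 (adjusted p = 0.0101), Sstr3 (0.0332) and Prlr (0.0488) passed beside Glp1r (0.0210) and Adra2a (0.0186) by edgeR, which makes 5 of 9. In that fit 1027 of all genes passed, 436 of them lower. Wild-type replicate 4 at 25 weeks has no βEedKO library of its number, so the blocked difference rests on the same-numbered libraries alone. The block also leaves few libraries to measure the spread. Leaving out either βEedKO library at 25 weeks, or wild-type replicate 3 or 4, took the adjusted p of both Glp1r (0.0902 to 0.232) and Adra2a (0.0514 to 0.141) past 0.05 by edgeR, with log2 fold changes of -3.61 to -2.62 and -2.84 to -2.21 over those settings. Glp1r also lost its call without wild-type replicate 4 (0.0534) or βEedKO replicate 4 (0.0532) at 8 weeks. Of 11 fits that each left out 1 library, Ffar1 and Prlr passed in only 2 each and Sstr3 in 1. With library size alone in place of TMM factors neither passed (Glp1r -2.64, adjusted p = 0.0884, and Adra2a -2.13, 0.0682, edgeR), and the difference of Gcgr turned to 0.15.

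**Figure D3:**
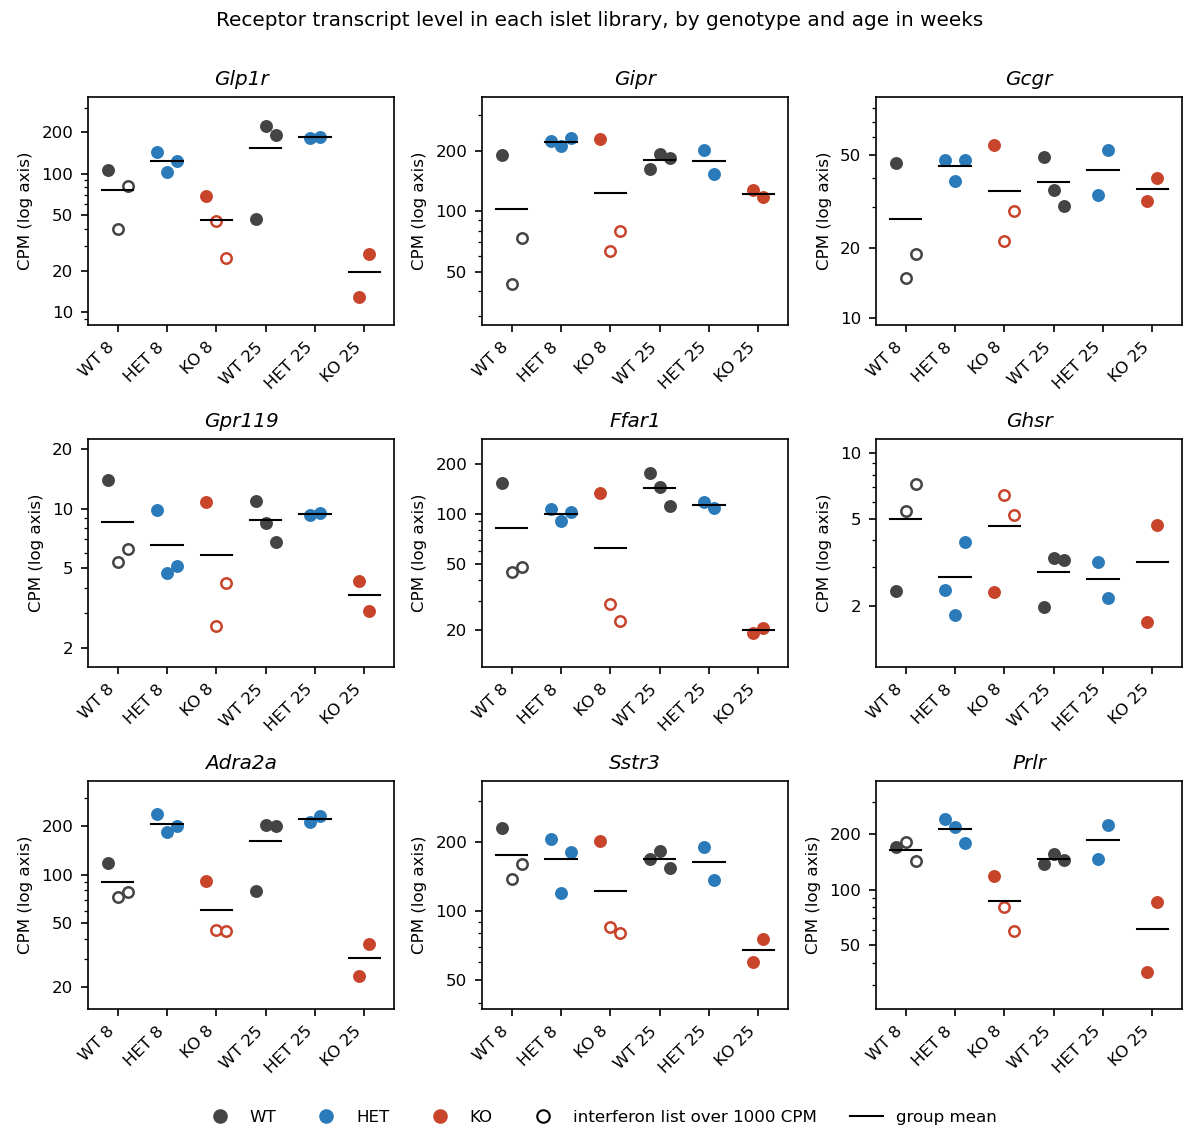
CPM of each receptor on a log axis in all 16 libraries, by genotype (colour) and age in weeks, with a bar at the group mean and open circles for the 4 libraries high in interferon-induced genes. At 25 weeks the βEedKO points lie below all wild-type points in 7 of 9 panels, Gcgr and Ghsr being the others, and at 8 weeks the open circles lie apart from the filled ones in most panels.

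The fall was compared with that of the β cell markers themselves. The median log2 fold change of the 10 markers at 25 weeks was -3.45, from -5.26 for Ucn3 to -1.99 for Pdx1, a transcription factor gene of the pancreas and β cell. Glp1r, Ffar1 and Adra2a lay within that range, while Prlr, Sstr3, Gpr119, Gipr, Gcgr and Ghsr had smaller differences than each of the 10. Whether any receptor differs from the markers was not tested. By start site state, 2.88% of the 6533 tested genes in state A fell and 0.429% rose at 25 weeks, and of 2512 genes in state L 1.59% fell and 13.9% rose. The receptors in state L (Gcgr, Ghsr and Prlr) had log2 fold changes of -0.14, 0.09 and -1.32, and none passed in either direction. In state A Glp1r fell and Gipr did not pass. Of 3008 genes in state B, which holds Ffar1 and Sstr3, 2.03% fell and 2.39% rose. Of 255 in state D, which holds the first start of Adra2a, 3.92% fell and 3.53% rose.

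At 8 weeks, when the β cell marker sums of the genotypes overlapped, no receptor passed the test between βEedKO and wild type. The median log2 fold change was -0.53 over the receptors, of which 7 were negative and 2 positive. It was -0.51 over the 10 β cell markers, none of which passed, and 0.004 over all genes. Over all genes 0.428% rose and 0.00535% fell at this age by edgeR. Only Prlr had groups that did not overlap: 171.1, 180.8 and 142.5 CPM in wild-type replicates 1, 3 and 4, against 119.0, 80.4 and 59.2 CPM in βEedKO replicates 1, 4 and 5. Non-overlap with lower βEedKO values held for 4.88% of all genes. The log2 fold change of Prlr was -0.94 ± 0.32 with an unadjusted p of 0.0154 (2.02% of all genes were lower at an unadjusted p under 0.05) and an adjusted p of 0.435 by edgeR. With wild-type and HET libraries pooled as the control it was -1.13 ± 0.29, and of 21 alternatives that fit alone gave an adjusted p under 0.05 by edgeR (0.0498). With the replicate block the log2 fold change was -0.67 (adjusted p = 0.834, edgeR).

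The 4 libraries high in interferon-induced genes were low in most of these receptors, in both genotypes. Gipr had 189.9 CPM in wild-type replicate 1 and 43.4 and 73.3 CPM in replicates 3 and 4, and 227.6 CPM in βEedKO replicate 1 against 63.3 and 79.6 CPM in replicates 4 and 5. Replicate 1 was thus 3.25-fold above the mean of the others in wild type and 3.19-fold in βEedKO. For Ffar1 the ratio was 3.32 in wild type, from 154.3 against 44.9 and 48.0 CPM, and 5.24 in βEedKO, from 134.4 against 28.8 and 22.5 CPM. Gcgr had ratios of 2.75 and 2.22, Gpr119 2.38 and 3.18, Glp1r 1.75 and 1.96, Adra2a 1.57 and 2.03 and Sstr3 1.53 and 2.44. Prlr had 1.06 in wild type and 1.70 in βEedKO. Ghsr alone went the other way, with 0.369 and 0.398: it had 2.35 CPM in wild-type replicate 1 and 5.46 and 7.25 CPM in the others. With 1 library against 2 in each genotype these ratios carry no test, and what set the 4 libraries apart cannot be told from the labels.

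With a term for the libraries high in interferon-induced genes, added after seeing the data, no receptor passed at 8 weeks either, the lowest adjusted p being 0.186 for Sstr3 (log2 fold change -0.63, edgeR). At 25 weeks the same term left the fold changes almost as they were and narrowed the errors: Glp1r (-3.02), Adra2a (-2.48), Ffar1 (-2.91), Sstr3 (-1.36), Prlr (-1.32) and Gpr119 (-1.28) passed, 6 of the 9, with adjusted p-values from 0.000290 for Ffar1 to 0.0353 for Gpr119 by edgeR. Over all genes 2532 were called in that fit, against 1234 without the term.

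The change between the ages was tested directly. The effect at 25 weeks minus that at 8 weeks was -2.31 ± 0.88 on the log2 scale for Glp1r, -1.90 ± 0.61 for Adra2a and -2.50 ± 1.00 for Ffar1, each with an unadjusted p under 0.05 (0.0244, 0.0105 and 0.0308). By edgeR none of the 9 passed after adjustment (0.518, 0.380 and 0.560 for these 3), and 0.107% of all genes passed downwards and 0.091% upwards, with 3.41% lower at an unadjusted p under 0.05. The values for Sstr3, Gpr119, Gipr, Gcgr, Prlr and Ghsr were -0.84, -0.75, -0.90, -0.56, -0.39 and 0.21. Ffar1 passed with the interferon term (adjusted p = 0.0136, edgeR), without the replicate 1 libraries at 8 weeks (0.0439) and with the replicate block and library size alone together (0.00209), but not with the block and TMM factors (0.107). For the other 8 receptors no alternative gave a call in this comparison.

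Within each genotype, no receptor passed between the ages in the main fit. Alternative fits given in the closing section did call some, in wild type and in βEedKO. From 8 to 25 weeks within βEedKO, Ffar1, Adra2a and Sstr3 were lower in both older libraries than in all 3 younger ones, which held for 11.3% of all genes, and the median of the 9 was -0.71 on the log2 scale. Only Adra2a (-1.05 ± 0.46, unadjusted p = 0.0453) and Sstr3 (-0.89 ± 0.39, unadjusted p = 0.0443) were below 0.05 unadjusted by edgeR, and their adjusted p-values were 0.344 and 0.341. Over all genes 0.487% fell and 1.02% rose in this comparison, and 6.26% were lower at an unadjusted p under 0.05. In wild type none of 18685 genes passed by edgeR, 723 (3.87%) were higher and 1175 (6.29%) lower at an unadjusted p under 0.05, and DESeq2 called 139. Glp1r (1.03 ± 0.57), Adra2a (0.85 ± 0.40) and Gipr (0.84 ± 0.54) had the largest differences of the 9, towards the older age, and none was below 0.05 unadjusted. All wild-type libraries at 25 weeks were low in interferon-induced genes while 2 of 3 at 8 weeks were high.

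**Figure D4:**
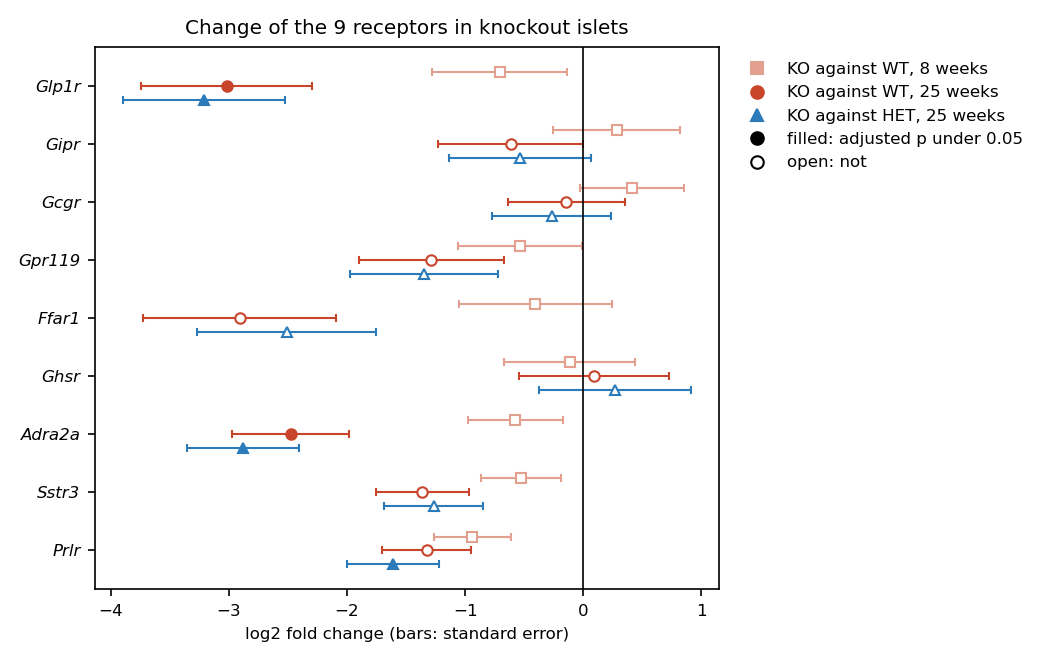
Log2 fold change of each receptor with its standard error in βEedKO against wild type at 8 and 25 weeks and in βEedKO against HET at 25 weeks, filled where the adjusted p from edgeR is under 0.05. Glp1r and Adra2a are filled against both controls at 25 weeks and Prlr against HET, while every point at 8 weeks is open.

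No receptor passed between HET and wild-type islets at either age. Eed had 17.1 to 20.5 CPM in HET islets at 8 weeks and 16.3 and 16.9 CPM at 25 weeks, below all wild-type libraries of the same age. By edgeR none of 18828 genes passed between HET and wild type at either age. At 8 weeks 1177 genes were higher and 1566 (8.32%) lower at an unadjusted p under 0.05, and at 25 weeks 73 (0.388%) and 137 (0.728%), while DESeq2 called 407 and 3 genes. Adra2a had 238.4, 184.5 and 200.3 CPM in the HET libraries at 8 weeks, all above the wild-type range of 73.1 to 119.3 CPM (log2 fold change 1.20 ± 0.37, unadjusted p = 0.00594, adjusted p = 0.237, edgeR). Gipr had 222.7, 209.5 and 229.7 CPM against 43.4 to 189.9 CPM (1.11 ± 0.50, unadjusted p = 0.0431, adjusted p = 0.328, edgeR). These are the 2 of 9 receptors whose HET libraries lay above all wild-type libraries, as did those of 10.2% of all genes, and 6.25% of all genes were higher at an unadjusted p under 0.05. All 3 HET libraries were low in interferon-induced genes, and with the term for high libraries the values were 0.67 for Adra2a and 0.23 for Gipr. At 25 weeks Adra2a was again above all wild-type libraries in both HET libraries, with 214.1 and 232.3 CPM (log2 fold change 0.46 ± 0.40, adjusted p = 1, edgeR), and 8.91% of all genes were placed so.

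HET islets gave a second control for the same βEedKO libraries, so the 2 comparisons are not independent. Against HET at 25 weeks, Adra2a (-2.88 ± 0.48, adjusted p = 0.00306), Glp1r (-3.21 ± 0.68, 0.0118) and Prlr (-1.61 ± 0.39, 0.0224) fell by edgeR, with 2.95% of all genes falling and 5.41% rising. Glp1r had 180.3 and 185.2 CPM in the HET libraries, Adra2a 214.1 and 232.3 CPM and Prlr 146.7 and 226.3 CPM. Adra2a against HET at 25 weeks passed in all 23 alternative fits, among them all 16 that left out 1 library. Glp1r lost its call there without HET replicate 1 (adjusted p = 0.0544) or 2 (0.0686) or βEedKO replicate 2 (0.113) at 25 weeks, and Prlr without HET replicate 2 (0.208) or βEedKO replicate 2 (0.154) and with library size alone (0.183), all by edgeR. Ffar1 (-2.51 ± 0.76, adjusted p = 0.0578) and Sstr3 (-1.27 ± 0.42, 0.0805) did not pass by edgeR. At 8 weeks Adra2a (-1.78 ± 0.37, 0.0225) and Prlr (-1.31 ± 0.32, 0.0363) fell against HET, where 1.14% of all genes fell and 3.6% rose. Here 2 of 3 βEedKO libraries and no HET library were high in interferon-induced genes, and with the term for high libraries neither passed (Adra2a -1.30, adjusted p = 0.0850, and Prlr -1.06, 0.138, edgeR). Leaving out any of the HET libraries, or βEedKO replicate 4 or 5, at 8 weeks also ended both calls (adjusted p from 0.0557 to 0.103 for Adra2a and from 0.0678 to 0.146 for Prlr, edgeR), and without wild-type replicate 3 or 4 at 25 weeks Prlr had 0.0503.

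Across the 16 libraries the receptors fell into patterns, described here by the Pearson correlation of log2 CPM between genes, without a test. Genotype, age and the interferon split are shared by all points. Glp1r and Adra2a ran most closely together (r = 0.959), followed by Ffar1 with Sstr3 (0.902), Adra2a with Prlr (0.866) and Gipr with Gcgr (0.856). Ghsr was negative against all 8 other receptors, from -0.717 with Gcgr to -0.139 with Prlr. Over the 11 wild-type and βEedKO libraries Ghsr was positive with Prlr (0.138) and Glp1r (0.025) and negative with the others. The genes most like a receptor depended on the libraries: over the 11 wild-type and βEedKO libraries, 2 of the 3 named here stayed for Glp1r and Ffar1, 1 of 3 for Gcgr, Gpr119, Sstr3 and Prlr, and 0 for Adra2a, Gipr and Ghsr. Among 15212 genes with a mean of at least 1 CPM, those most like Glp1r were Gpatch2 (0.9802), Ttc28 (0.978) and Pfkfb2 (0.971), and those most like Adra2a were C2cd4b (0.970), Zc2hc1c (0.961) and Usp35 (0.960). Ffar1 was most like Il6ra (0.979), Cfap54 (0.979) and Cln6 (0.973), and Gipr most like Vwa5b2 (0.956), Rabep2 (0.955) and Kif12 (0.952). For Prlr these genes were Gm44109 (0.947), Sec16b (0.942) and Dcaf6 (0.927), for Gcgr Dtx3 (0.937), Sncb (0.935) and Rgs11 (0.921), and for Sstr3 Tat (0.930), Marveld3 (0.928) and Uox (0.926). For Gpr119 they were Pigv (0.942), Etohd2 (0.918) and Ash2l (0.908), and for Ghsr they included Gcnt4 (0.940) and Gnaz (0.931).

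Other receptors of the islet moved in both directions at 25 weeks. Of 40 listed, 34 were tested, 5 rose and 5 fell, and the median log2 fold change was 0.77, against 0.03 over all genes. The galanin receptor gene Galr1 fell from 28.8 to 38.3 CPM in wild type to 3.57 and 8.50 CPM in βEedKO (log2 fold change -2.51 ± 0.34, adjusted p = 0.00240, edgeR). The orphan receptor gene Gpr158 (-1.82 ± 0.28), the growth hormone receptor gene Ghr (-1.67 ± 0.25), the adenosine receptor gene Adora1 (-1.51 ± 0.29) and the muscarinic receptor gene Chrm3 (-1.21 ± 0.22) fell as well. Ghr is a cytokine receptor of the same family as Prlr, and it had 231.4 to 232.8 CPM in wild type and 62.1 and 88.5 CPM in βEedKO. The leptin receptor gene Lepr rose from 1.35 to 2.61 CPM in wild type to 15.6 and 17.9 CPM in βEedKO (2.98 ± 0.36, adjusted p = 0.00137, edgeR). Crhr2, a receptor for urocortins, rose from 0.752 to 1.24 CPM to 6.69 and 8.62 CPM (2.85 ± 0.42), and the somatostatin receptor genes Sstr1 (3.06 ± 0.80) and Sstr2 (2.04 ± 0.50) rose while Sstr3 did not pass. The dopamine receptor gene Drd2 rested on 2 reads in wild type and 70 in βEedKO, a ratio of 28.4 with a 95% counting interval from 7.57 to 239. At 8 weeks Crhr1, a receptor for corticotropin-releasing hormone, rose (3.19 ± 0.46, adjusted p = 0.0169, edgeR) as the only one of the 34. Of 11 fits that each left out a library, Sstr1 kept the call in only 1, Drd2 in 7, Adora1 in 9 and Gpr158 in 10. With the replicate block Drd2 (adjusted p = 0.144), Sstr1 (0.0752) and Adora1 (0.0890) lost it by edgeR.

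Downstream of the receptors, all 40 listed genes for G proteins, adenylyl cyclases, phosphodiesterases, arrestins and other cAMP effectors were tested at 25 weeks, and 7 rose and 2 fell. Their median log2 fold change was -0.12. The rises were in cyclase genes, Adcy1 (3.07 ± 0.47), Adcy5 (2.86 ± 0.46) and Adcy8 (2.61 ± 0.56), in Gnal (1.88 ± 0.38) and Gnas (1.17 ± 0.26), which encode α subunits that stimulate cyclase, and in Arrb1 (1.67 ± 0.37) and Pde8b (1.35 ± 0.33). Adcy5 went from 2.78 to 3.05 CPM in wild type to 21.5 and 22.8 CPM in βEedKO. The falls were in the phosphodiesterase gene Pde3b (-1.18 ± 0.23) and in Gnai2 (-0.82 ± 0.21), which encodes an inhibitory α subunit. Pde3b lost its call with library size alone (adjusted p = 0.289) and without wild-type replicate 3 (0.0522) or βEedKO replicate 2 (0.128) or 3 (0.0810) at 25 weeks by edgeR. Adcy8 lost it in 3 and Gnal in 4 of 11 fits that left out a library. Gnai2 lost its call in 9 of 11 fits that left out a library and with library size alone (adjusted p = 0.480, edgeR). At 8 weeks none of the 40 passed. With the replicate block Gnai2 (adjusted p = 0.0604), Gnal (0.0740) and Adcy8 (0.0916) no longer passed at 25 weeks by edgeR.

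Of 12 genes in prolactin receptor signalling only Tph1, the serotonin-synthesis enzyme gene that prolactin is known to induce in β cells, passed at 25 weeks. It rose while the receptor gene did not pass: 708 reads in the βEedKO libraries against 1 in wild type, a ratio of 574 with a 95% counting interval from 103 to 22696 (adjusted p = 0.00471, edgeR, and 0.0695 with the replicate block). The signalling genes Jak2 (log2 fold change 0.46), Stat5a (-0.65), Stat5b (-0.83), Socs2 (-0.80) and Cish (-0.45) did not pass. Among ligands made in islets, 12 of 14 were tested, 2 rose and 1 fell at 25 weeks. Cck, the cholecystokinin gene, had 4037 reads in βEedKO and 0 in wild type, at least 1091-fold higher when the summed wild-type reads are set to 3 (adjusted p = 0.00476, edgeR, and 0.0560 with the replicate block). Ghrl, which encodes ghrelin, the ligand of Ghsr, rose from 0.773 to 2.86 CPM to 4.03 and 11.4 CPM (2.19 ± 0.58, adjusted p = 0.0494, edgeR) and lost the call in 9 of 11 fits that left out a library. Ucn3, a ligand of Crhr2, fell from 346.2 to 446.9 CPM to 10.07 and 11.4 CPM (-5.26 ± 0.39, adjusted p = 0.000170, edgeR). Gcg, the glucagon gene and source of ligands for Gcgr and Glp1r (0.44 ± 0.60), and Sst, that of Sstr3 (-0.30 ± 0.40), did not pass.

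**Figure D5:**
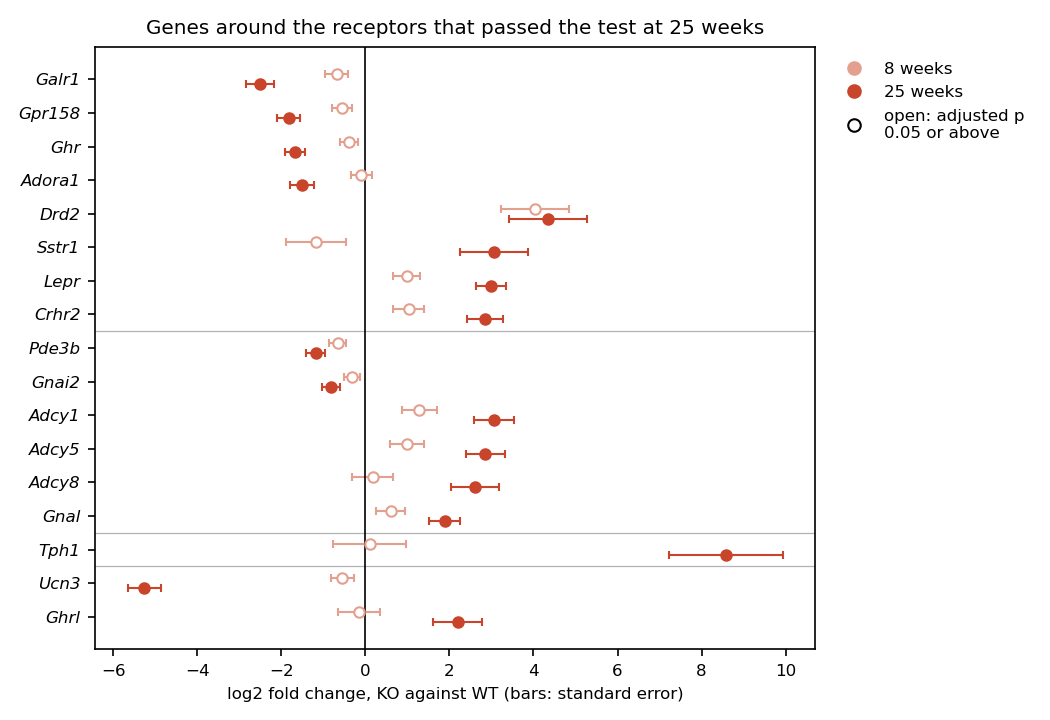
Log2 fold change with its standard error in βEedKO against wild type at 8 and 25 weeks for listed genes that passed at 25 weeks, in order other receptors, G proteins and cAMP effectors, prolactin signalling and ligands, filled where the adjusted p from edgeR is under 0.05. Every 25-week point is filled and every 8-week point open, Ucn3 lies lowest at -5.26, and the fitted values of Drd2 and Tph1 rest on 2 and 1 wild-type reads. Cck is not drawn because its wild-type libraries at 25 weeks are at 0.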

How the data were processed

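Messenger RNA of whole islets was sequenced in 16 libraries (2 or 3 per group of genotype and age). The authors deposited raw read counts per gene, made by mapping with TopHat (TopHat2 2.0.13) to GRCm38 and counting with featureCounts (Subread 1.5.0-p1) on Gencode gene models; the strand setting is not given in the sources used here. The authors also deposited chromatin state letters, from an EpicSeg segmentation of wild-type islets in bins of 200 bp on autosomes.

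Of 47937 gene identifiers, 47224 were matched to symbols through a GRCm38 GENCODE annotation. Counts were tested with edgeR 4.0.16 (R 4.3.3, limma 3.58.1): TMM factors, filterByExpr by group, quasi-likelihood test, Benjamini-Hochberg adjustment over all genes tested, threshold 0.05. βEedKO against wild type used 11 libraries (18685 genes) and comparisons with HET used 16 (18828 genes). Standard errors were the log2 fold change over the square root of F. CPM used library size times TMM factor, and RPKM the union of exons. The test was checked on simulated data. DESeq2 1.42.0 and the other alternatives are described in the closing section, 2 of them chosen after seeing the data: a term for libraries whose interferon-induced genes sum to over 1000 CPM, and leaving out both replicate 1 libraries at 8 weeks. Counting intervals and floors (3 reads) cover counting error only. No replicate pair agreed within sampling noise.

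The receptors and gene lists were chosen with earlier results of these data known. Genes named are the 9 receptors, the 3 genes most correlated with each, up to 4 genes per direction and list with the largest change among those past the threshold at 25 weeks, Eed and the markers. A gene of the correlation list is not reported here. Chrm3, Sstr2, Crhr1, Gnas, Arrb1, Pde8b, Jak2, Stat5a, Stat5b, Socs2, Cish, Gcg and Sst were named after their values were seen. The labels do not say what a replicate number marks. Deviations from the group mean were correlated between same-numbered wild-type and βEedKO libraries. The r was 0.406 and 0.112 at 8 weeks and 0.132 and 0.185 at 25 weeks. All were over 0.1, so the numbers were taken as pairs for that comparison. At 25 weeks the deviations of both βEedKO libraries mirror each other, and crossing the numbers gave -0.132 and -0.185 by construction. The r of 0.406 is that of the replicate 1 libraries, which alone were low in interferon-induced genes in these genotypes at 8 weeks. Some pairs with other numbers correlated too, wild-type replicates 3 and 4 with βEedKO replicate 5 at 8 weeks with r = 0.397 and 0.271, so the blocked values rest on a pairing that the data show only in part. P-values measure the spread between these libraries. The list of cell barcodes and the other assays of the study were not analysed here.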

Additional observations from a re-analysis of the deposited data

Results flagged for a closer look

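The βEedKO effect on Ucn3, the urocortin gene among the listed ligands and β cell markers, differed between the ages by a test of the difference itself. Its log2 fold change against wild type was -0.54 at 8 weeks and -5.26 at 25 weeks, a difference of -4.72 (edgeR's quasi-likelihood interaction test).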

How the results depend on the processing

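Alternatives were DESeq2, other size factors, no filter, all 16 libraries in the fit, wild type and HET pooled as control, a replicate block, a term for the interferon-high libraries, leaving out both replicate 1 libraries at 8 weeks, and leaving out each library. The cause of the changes below was not tested.

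For βEedKO against wild type at 25 weeks, 1234 genes and 2 receptors were called. DESeq2 gave 2093 genes and 5 receptors, the pooled control 2649 and 5, the interferon term 2532 (1576 higher, 956 lower) and 6, and leaving out the replicate 1 libraries 2515 (1614 higher, 901 lower) and 6. All 16 libraries in the fit gave 1692 genes and 4 receptors, and library size alone 884 (805 higher, 79 lower) and 0. Leaving out 1 library gave 392 to 1609 genes and 0 to 5 receptors. At 8 weeks (81 genes, 0 receptors) DESeq2 gave 393 genes, no filter 137, the pooled control 503 and 1 receptor, the interferon term 183, and leaving out 1 library 18 to 135 genes and 0 receptors. For the difference between the ages (37 and 0), DESeq2 gave 340 genes, library size alone 11, no filter 73, 16 libraries 90, the pooled control 204, the interferon term 193 and 1 receptor, leaving out the replicate 1 libraries 59 and 1, and leaving out 1 library 10 to 40 and 0.

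For βEedKO at 25 against 8 weeks (281 and 0), the interferon term gave 2 receptors. Its count over all genes is not given here, so these 2 cannot be set against a share of all genes. DESeq2 gave 960 genes, library size alone 168, 16 libraries 473, the pooled control 472, leaving out the replicate 1 libraries 2724, and leaving out 1 library 36 to 386. For wild type (0 and 0) these were DESeq2 139, library size alone 1, no filter 8, 16 libraries 4, without the replicate 1 libraries 1866 and 3 receptors, and 0 to 5 without 1 library. HET against wild type at 8 weeks (0 genes) gave 407 with DESeq2, 5 with no filter, 2 with the interferon term and 0 to 601 genes and 0 to 1 receptors without 1 library, and at 25 weeks (0) 3 with DESeq2 and 0 without 1 library. βEedKO against HET at 8 weeks (892 and 2) gave 2303 genes with DESeq2, 505 and 0 receptors with library size alone, 435 and 0 with the interferon term, and 143 to 4014 and 0 to 6 without 1 library. At 25 weeks (1574 and 3) these were 2696 and 5, 913 genes, 3043 and 6, and 302 to 2123 and 1 to 5.

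With the replicate block, βEedKO against wild type gave 1027 genes and 5 receptors at 25 weeks, 0 genes at 8 weeks and 2 genes for the difference between the ages. The block with library size alone gave 1988 genes and 5 receptors, 265 genes, and 241 genes and 1 receptor. Against HET, where same-numbered libraries did not correlate over 0.1 (r = -0.021 and -0.025), the block gave 1 gene and 0 receptors at 8 weeks and 429 genes at 25 weeks, and with library size alone 42 and 0, and 819. HET against wild type gave 32 genes at each age with the block and library size alone.

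Between βEedKO and wild type, and for the difference between the ages, signs turned only in comparisons where the receptor passed under no fit. Of the receptors listed below, Ffar1, Gpr119 and Prlr did pass under some alternatives at 25 weeks, where their signs held. Sign changes in the other comparisons are not listed. At 25 weeks Gcgr was 0.15 with library size alone and -0.31 to 0.073 without 1 library, and Ghsr -0.83 to 0.62 without 1 library. At 8 weeks the pooled control gave Gipr -0.38, Gcgr -0.019 and Ghsr 0.27, library size alone gave Ghsr 0.033, and 0.15 with the block. Without 1 library at 8 weeks Gipr was -0.50 to 1.05, Gcgr -0.074 to 1.04, Ffar1 -1.67 to 0.38 and Ghsr -0.47 to 0.25. For the difference between the ages Ghsr was -0.069 with the pooled control, and without 1 library Ghsr was -0.74 to 0.74, Gpr119 -1.26 to 0.016 and Prlr -1.15 to 0.10. Prlr in wild type at 8 weeks was 10.7 RPKM, and 16.6 RPKM with its longest transcript.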
